A study of Mus musculus with 12 samples.

Results

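Respiratory chain subunits were the 100 entries, of 54674 in the deposited mouse expression matrix, whose gene identifier carries a protein-coding symbol in GENCODE M21 that begins with Ndufa, Ndufb, Ndufc, Ndufs, Ndufv, Uqcr, Cox4, Cox5, Cox6, Cox7, Cox8, Atp5, mt-Nd, mt-Co, mt-Cytb or mt-Atp, or equals Cyc1 or one of Sdha, Sdhb, Sdhc and Sdhd. The Ndufaf assembly factors were left out. The nuclear genome encodes 87 of the entries, namely 38 of complex I, 4 of complex II, 9 of complex III, 18 of complex IV and 18 of complex V, and the mitochondrial genome encodes the other 13. The 100 entries carry 99 distinct symbols, because Atp5o is listed under 2 identifiers. Bulk RNA sequencing had been done on 12 mouse libraries, and the series sets out to compare the polymorphonuclear and monocytic kinds of myeloid-derived suppressor cell, a myeloid cell that dampens T cell responses in cancer. There were 3 libraries each of Ly6C tumor, Ly6C spleen, Ly6G tumor and Ly6G spleen, where Ly6C and Ly6G are surface proteins of the monocytic and the granulocytic line. All 12 came from mice, and the labels name no genotype, strain, age, treatment, tumor model or sorting gate for any group. The series title names a MAPK pathway inhibitor, but no library is labelled as treated with one.

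The respiratory chain of the inner mitochondrial membrane passes electrons from NADH through complex I, or from succinate through complex II, to ubiquinone, complex III, cytochrome c and finally oxygen at complex IV, and complexes I, III and IV pump protons that drive the ATP synthase, complex V. Its core is built from both genomes: the mitochondrial DNA encodes membrane subunits of complexes I, III, IV and V, and the nucleus encodes complex II and all remaining subunits, several of complexes I, IV and V as tissue-restricted isoforms. Neutrophils hold few mitochondria and live mainly on glycolysis, whereas monocytes and macrophages respire more.

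Total FPKM (fragments per kilobase of transcript and per unit of mapped fragments, so a level per length of transcript) was 331681 to 449309 per library, and 10379 to 12337 genes reached 1 FPKM. The libraries of the 2 tissues also differed in markers of cell type. The leukocyte gene Ptprc lay between 2.59 and 4.59 FPKM in Ly6C tumor, 26.3 and 38.3 in Ly6C spleen, 7.66 and 13.95 in Ly6G tumor and 34.8 and 52.5 in Ly6G spleen. Of 20 pan-leukocyte genes, 19 were lower in tumor in each label. Their summed FPKM was 300.2 to 626 in Ly6C tumor, against 5766 to 6613 in Ly6C spleen, and 806 to 1384 in Ly6G tumor, against 7429 to 7784 in Ly6G spleen. All 12 neutrophil genes were lower in tumor in each label (1438 to 2693, against 66820 to 104759 FPKM in Ly6C, and 4418 to 8719, against 128664 to 163819 in Ly6G), as were 8 and 6 of 9 monocyte genes, all 7 B cell genes and all 8 erythroid genes. In Ly6G tumor 1 monocyte gene was higher. Macrophage genes moved less uniformly: of 8, 3 were lower in Ly6C tumor and 6 in Ly6G tumor, and 0 were higher by limma. They summed to 117 to 228 FPKM in Ly6C tumor, against 154 to 329 in Ly6C spleen. In Ly6G tumor the sum was 97.4 to 303, against 279 to 649 in Ly6G spleen. Of 8 epithelial genes, the 2 that could be tested, the keratins Krt8 and Krt18, were higher in tumor. The list summed to 753 to 1020 FPKM in Ly6C tumor, 0.347 to 0.557 in Ly6C spleen, 446 to 754 in Ly6G tumor and 0.917 to 1.23 in Ly6G spleen. The defining gene Epcam was listed at 0 in all 3 Ly6C tumor libraries. Fibroblast genes summed to 192 to 364 FPKM in Ly6C tumor and 137 to 323 in Ly6G tumor, and to at most 1.05 in any spleen library. Ly6c2 did not separate the labels in either tissue. In spleen it lay between 223 and 272 FPKM in Ly6C and between 170 and 237 in Ly6G, while Ly6g reached 131 to 209 in Ly6C and 591 to 717 in Ly6G. In tumor Ly6c2 lay between 6.35 and 8.16 FPKM in Ly6C and between 5.31 and 7.80 in Ly6G. Ly6g reached 11.8 to 13.8 FPKM in Ly6C tumor and 31.5 to 54.1 in Ly6G tumor. These markers move with every difference between tumor and spleen below, and their part in those differences was not tested. In bulk RNA, fewer cells of a type and less RNA per cell cannot be told apart. The labels do not say that replicates came from separate animals, so p-values measure the spread between these libraries.

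The mitochondrially encoded subunits took a larger share of each library in tumor than in spleen, while the share of the nuclear-encoded subunits depended on which transcripts were counted in the total. The 13 mitochondrially encoded subunits took 4.17%, 2.83% and 7.37% of all FPKM in Ly6C tumor libraries 1 to 3, against 1.44%, 2.21% and 1.63% in Ly6C spleen. In Ly6G tumor they took 5.12%, 5.22% and 11.3%, against 1.96%, 2.14% and 2.28% in Ly6G spleen. Replicate 3 was the highest library of each tumor group, and no tumor library overlapped the spleen libraries of its label. The 87 nuclear-encoded subunits took 1.28% ± 0.0231 in Ly6C tumor, 0.978% ± 0.154 in Ly6C spleen, 0.969% ± 0.0540 in Ly6G tumor and 0.803% ± 0.0745 in Ly6G spleen (SD, n = 3 each), 1.26-fold higher in tumor over both labels (two-sided exact permutation test within labels, p = 0.005). That total includes S100a8 and S100a9, neutrophil calcium-binding proteins, which took 0.484% of all FPKM in Ly6C tumor, 18.2% in Ly6C spleen, 1.67% in Ly6G tumor and 27.9% in Ly6G spleen. Without these 2 genes in the total, a setting added after the data were seen for this share, the nuclear-encoded share was 1.28% ± 0.0242 in Ly6C tumor and 1.19% ± 0.129 in Ly6C spleen, but 0.986% ± 0.0569 in Ly6G tumor and 1.11% ± 0.0646 in Ly6G spleen (SD, n = 3 each). The log2 difference over both labels was then -0.031 (exact p = 0.7), whereas that of the mitochondrially encoded share was 1.14 (exact test, adjusted p = 0.01).

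The ratio of mitochondrially to nuclear-encoded subunits, which does not depend on how libraries are scaled to each other, was 3.75 ± 1.83 in Ly6C tumor and 1.81 ± 0.326 in Ly6C spleen, and 7.58 ± 4.16 in Ly6G tumor and 2.66 ± 0.260 in Ly6G spleen (SD, n = 3 each). Across both labels it was 2.25-fold higher in tumor (two-sided exact permutation test within labels, p = 0.005, the smallest that 400 arrangements can give). Within one label, an exact permutation test of 3 libraries against 3 cannot give less than p = 0.1. Without the replicate 3 libraries of both tumor groups the log2 difference was 0.78 (exact p = 0.01), against 1.17 with them, and without mt-Atp6, for a reason given below, the ratio was 2.05-fold higher (exact p = 0.005).

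**Figure D1:**
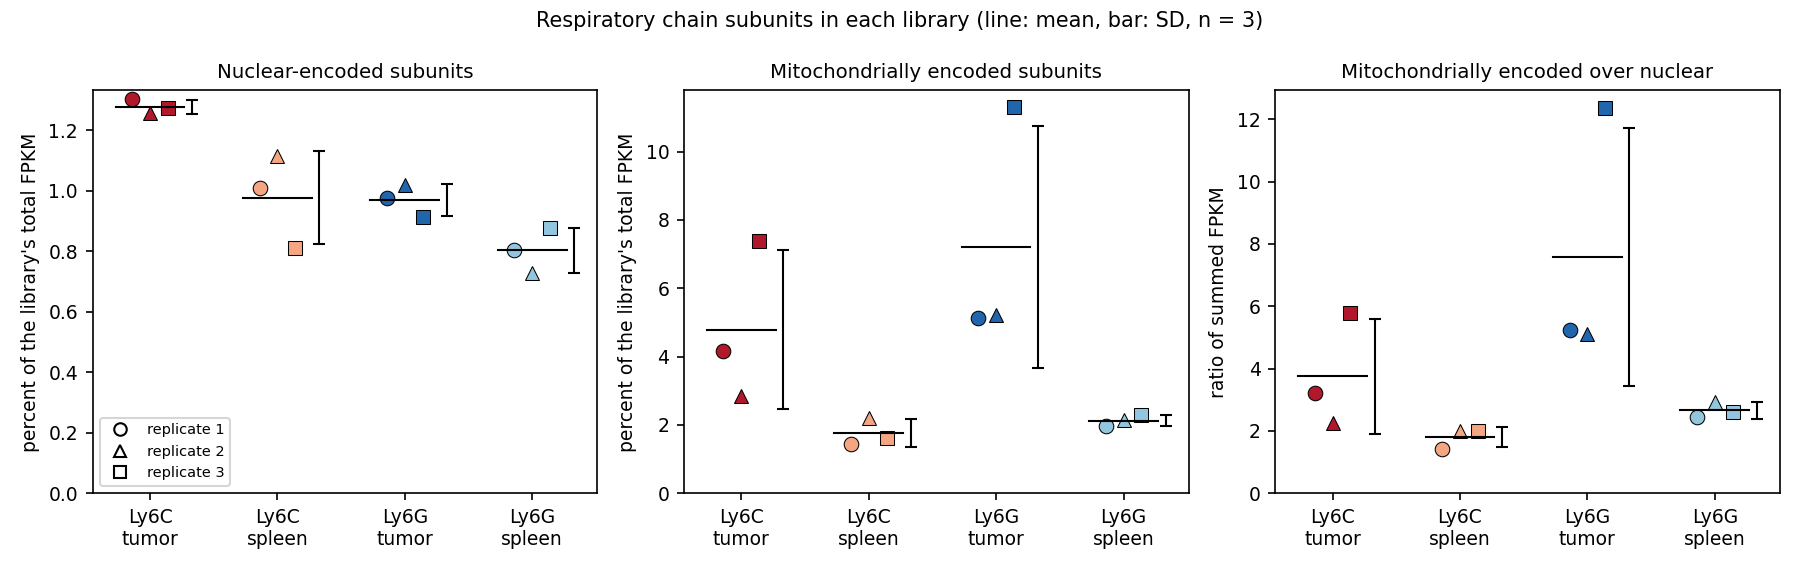
Share of the library's total FPKM taken by nuclear-encoded subunits (left, percent) and by mitochondrially encoded subunits (middle, percent), and the ratio of the 2 sums (right), with one point per library, a line at the mean and a bar of 1 SD in each of the 4 groups. Mitochondrially encoded subunits reach 7.37% and 11.3% in the replicate 3 libraries of Ly6C tumor and Ly6G tumor, and stay between 1.44% and 2.28% in the 6 spleen libraries.

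By complex, complex V had the largest difference of the nuclear classes. As a share of total FPKM over both labels, complex V subunits were 1.503-fold higher in tumor than in spleen, complex III 1.34-fold and complex IV 1.20-fold (exact permutation test within labels, adjusted p = 0.0075 for each over 6 classes). Complex I was 1.20-fold higher (exact test, adjusted p = 0.024), a call lost without any one of the 3 Ly6C tumor libraries, Ly6G tumor replicate 2 or Ly6G spleen replicate 2 (adjusted p = 0.054 to 0.066, exact test) and with the replicate number as a block (adjusted p = 0.113, exact test of sign flips). Complex II, at 1.07-fold, did not pass (exact test, adjusted p = 0.105). With S100a8 and S100a9 left out of the total, the log2 difference was -0.11 for complex I, -0.11 for complex IV and -0.27 for complex II, of which only complex II passed (exact test, adjusted p = 0.01). Complex III stood at 0.053, and complex V at 0.22 (exact test, adjusted p = 0.01), against 0.59 with them in the total.

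Among single genes, Ly6C tumor differed from Ly6C spleen mostly upward. Of the 96 subunits that reached 1 FPKM in 3 or more libraries and were tested with limma on log2(FPKM + 1), 61 were higher in Ly6C tumor, 5 were lower and 30 did not pass at an adjusted p of 0.05. As background, 46.2% of all 13610 genes tested were higher and 30.5% lower, 76.7% in either direction. The median log2 change was 0.48 over the 83 nuclear-encoded subunits tested and 1.27 over the 13 mitochondrially encoded ones, against 0.27 over all genes. In Ly6G, 32 were higher in tumor, 28 lower and 36 did not pass, beside a background of 51.5% higher and 24.7% lower, 76.2% in either direction. Here the medians were 0.01 for nuclear-encoded subunits, 1.12 for mitochondrially encoded ones and 0.43 for all genes. By class, the share of tested subunits higher in Ly6C tumor was 71.1% for complex I, 55.6% for complex III, 46.7% for complex IV, 58.8% for complex V and 76.9% for the mitochondrially encoded ones, beside the 46.2% of all genes. In Ly6G tumor the shares were 34.2%, 33.3%, 26.7%, 35.3% and 46.2%, all under the 51.5% of all genes. Of the 96, 6 reached the expression filter through one tissue alone, Ndufa12, Ndufa4l2, Cox4i2 and Atp5s through tumor and Cox6a2 and Cox6b2 through spleen, so that they were tested because they were high there. The other 90 gave 57 higher and 3 lower in Ly6C, and 28 and 26 in Ly6G. Without both tumor libraries of replicate 3 the counts over all 96 were 50 higher and 6 lower in Ly6C, and 30 higher and 24 lower in Ly6G. The 4 entries not tested, Cox7b2, Cox8b, Cox8c and the second Atp5o identifier, were listed at 0 in all 12 libraries.

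How many subunits passed in each direction moved with the scaling between libraries. The median of all genes moved too: over the deposited values and 5 other scalings it lay between -0.03 and 0.27 in Ly6C and between -0.02 and 0.74 in Ly6G. In Ly6C the split was 51 higher and 5 lower when every library was rescaled to an equal sum, 45 and 9 after quantile normalization, 37 and 12 with median-of-ratios factors, and 34 and 14 on equal sums without S100a8 and S100a9. In Ly6G the split turned, with 51 and 14 on equal sums, 27 and 38 after quantile normalization, 29 and 34 on equal sums without S100a8 and S100a9, and only 13 against 49 when median-of-ratios factors were used. The split of all genes moved as well. In Ly6C it was 5876 and 4400 on equal sums, 5220 and 5214 after quantile normalization and 5342 and 5122 with median-of-ratios factors. Without S100a8 and S100a9 it was 5068 and 5284 in Ly6C and 6618 and 3586 in Ly6G. For all genes in Ly6G the other splits were 8152 and 2557 on equal sums, 5069 and 5120 after quantile normalization and 5260 and 5030 with median-of-ratios factors. Relative to the median of all genes the order held: the nuclear-encoded median stood 0.15 to 0.33 above it in Ly6C under all 6 scalings, and 0.20 to 0.54 below it in Ly6G. Under all 6 scalings 30 subunits passed as higher and 5 as lower in Ly6C, and 12 as higher and 12 as lower in Ly6G. The Ly6C counts include all 6 members that reached the filter through one tissue alone. The Ly6G counts include the same members except Cox4i2. How many of all genes passed under all 6 was not counted, so these counts have no background. In both labels and under all 6, the higher ones were Ndufa10, Ndufa12, Ndufa4l2, Ndufb5, Ndufv1, Atp5b, Atp5s, mt-Atp6, mt-Atp8 and mt-Cytb, and the lower ones were Ndufa3, Ndufb7, Cox6a2, Cox6b2 and Atp5j. Of these, Ndufa12, Ndufa4l2, Atp5s, Cox6a2 and Cox6b2 are among the 6 that passed the filter through one tissue alone.

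**Figure D2:**
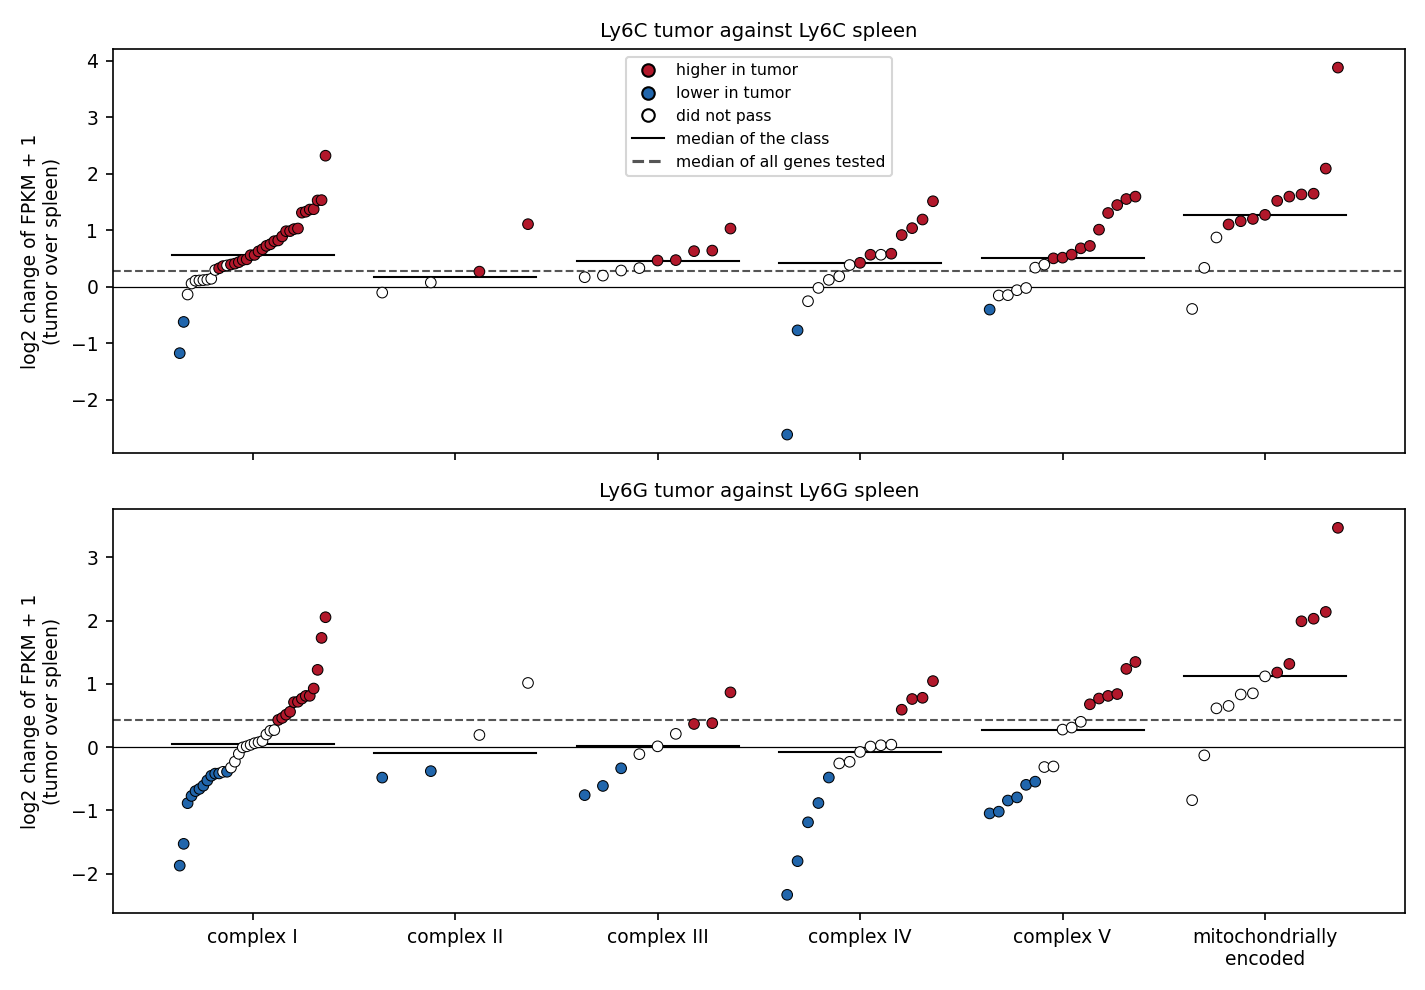
Log2 change of FPKM + 1 in tumor against spleen for each of the 96 subunits tested, sorted within each complex, in Ly6C (top) and Ly6G (bottom); filled points passed at an adjusted p of 0.05, solid lines are class medians and the dashed line is the median of all genes tested. Most points of Ly6C lie above 0 (61 higher and 5 lower passed), while those of Ly6G spread to both sides (32 and 28), and the mitochondrially encoded class has the highest median in each (1.27 and 1.12).

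Complex I, the NADH dehydrogenase, had 27 of 38 subunits higher and 2 lower in Ly6C tumor (median log2 change 0.56), and 13 higher and 12 lower in Ly6G tumor (median 0.05). The higher ones in each label include Ndufa12 and Ndufa4l2, which passed the filter through tumor alone. Ndufa10, an accessory subunit, on chr1:92439010-92473860 (GRCm38, minus strand), was at 28.0, 28.9 and 26.2 FPKM in Ly6C tumor, against 8.57, 11.0 and 7.53 in Ly6C spleen. Its levels in Ly6G tumor were 20.3, 20.3 and 17.4, against 8.60, 7.73 and 6.87 in Ly6G spleen. All 6 tumor libraries lay above all 6 spleen libraries, with a log2 change of 1.53 ± 0.14 in Ly6C (SE; limma, Benjamini-Hochberg adjusted p = 7.8e-07) and 1.22 ± 0.14 in Ly6G (adjusted p = 6e-06). Core subunits on the path of the electrons had smaller changes. Ndufv1, the NADH-binding subunit with the flavin, had 31.1, 28.6 and 29.5 FPKM in Ly6C tumor, against 14.1, 16.9 and 11.9 in Ly6C spleen. Ly6G tumor had 21.9, 18.6 and 18.8 FPKM, against 11.2, 10.3 and 12.03 in Ly6G spleen (log2 change 1.02 ± 0.13 in Ly6C and 0.77 ± 0.13 in Ly6G). Ndufs1, which carries iron-sulfur clusters, rose by 0.43 ± 0.11 in Ly6C and had 0.06 ± 0.11 in Ly6G, where it did not pass. The Ly6G value of Ndufs1 turned to -0.40 with median-of-ratios factors.

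The 2 subunits of complex I that fell in Ly6C tumor also fell in Ly6G tumor. Ndufb7, an accessory subunit on the intermembrane side of complex I (known from mammalian structures), was listed at 11.5, 9.84 and 10.3 FPKM in Ly6C tumor, against 27.6, 24.1 and 23.6 in Ly6C spleen. In Ly6G tumor it was at 7.53, 8.50 and 7.33, against 34.3, 26.7 and 33.1 in Ly6G spleen. Every tumor library was below every spleen library, and the log2 change was -1.18 ± 0.12 in Ly6C (limma adjusted p = 3e-06) and -1.88 ± 0.12 in Ly6G (adjusted p = 6.8e-08). Ndufa3, another accessory subunit, had 28.4, 23.3 and 30.9 FPKM in Ly6C tumor, against 40.6, 44.6 and 43.2 in Ly6C spleen. Ly6G tumor had 18.0, 21.8 and 22.4 FPKM, against 62.0, 56.3 and 66.6 in Ly6G spleen. Ndufa3 fell by 0.63 on the log2 scale in Ly6C and by 1.53 in Ly6G, with no overlap in either label.

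One subunit of complex I with a high log2 change was read from a gene whose sequence recurs elsewhere. Ndufa12, an accessory subunit, on chr10:94198720-94221443 (GRCm38, plus strand), had 10.5, 8.30 and 1.92 FPKM in Ly6C tumor, against 0.413, 0.161 and 0.528 in Ly6C spleen. Ly6G tumor had 5.81, 7.71 and 7.04 FPKM, against 0.279, 2.04 and 0.710 in Ly6G spleen. Only 1 spleen library was above 1 FPKM, so Ndufa12 passed the expression filter through tumor. A copy, Gm15920 on chromosome 5, is 99.5% identical over 402 bases and was listed at a mean of 71.4 FPKM over the 12 libraries, against 3.78 for Ndufa12 itself. The stretch below, from GENCODE M21 transcripts, shows how little separates them, with the only differing base of the stretch in capitals, A225G counted from 1 at the 5′ end of the Ndufa12 transcript. A short read across this stretch tells the copies apart only if it covers that base.
Ndufa12: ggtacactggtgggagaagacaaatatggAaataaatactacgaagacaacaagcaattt
Gm15920: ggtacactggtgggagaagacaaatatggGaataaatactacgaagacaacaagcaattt
The Gm15920 stretch lies at chr5:130188464-130188523 (GRCm38, plus strand). Summed with this copy, the log2 change of Ndufa12 was 2.09 in Ly6C and 1.63 in Ly6G (limma adjusted p = 8.3e-08 and 7.8e-07), against 2.32 ± 0.44 in Ly6C and 2.05 ± 0.44 in Ly6G for the member alone. In all, 20 nuclear-encoded subunits had a copy of at least 95% identity over 200 bases, 14 of them one listed at 1 FPKM or more, and 7 were listed below their copy. Atp5l, a membrane subunit of the ATP synthase, was at a mean of 3.45 FPKM and its copy Gm10221, 100% identical over 309 bases, at 191; Ndufb4 was at 1.93 and its copy Ndufb4c, 100% identical over 390 bases, at 31.9. Both were picked after their values were seen, and their own levels are uncertain. Summing members with their copies, a setting added after the data were seen, left 61 higher and 5 lower in Ly6C and 33 and 28 in Ly6G.

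Complex II, succinate dehydrogenase, is wholly nuclear-encoded and also belongs to the citric acid cycle. Of its 4 subunits, Sdha and Sdhc passed as higher in Ly6C tumor, and Sdhb and Sdhd as lower in Ly6G tumor. Sdha, the flavoprotein, had 43.1, 41.1 and 41.7 FPKM in Ly6C tumor, against 33.7, 38.1 and 32.7 in Ly6C spleen. Ly6G tumor had 33.8, 33.2 and 35.0 FPKM, against 29.1, 28.6 and 31.2 in Ly6G spleen. The tumor libraries were above the spleen libraries of their label, by a log2 change of 0.27 ± 0.10 in Ly6C (limma adjusted p = 0.025) and 0.19 ± 0.10 in Ly6G (adjusted p = 0.089), and both values turned negative under median-of-ratios factors (-0.052 in Ly6C and -0.34 in Ly6G). Sdhb, the iron-sulfur subunit, was at 22.9, 24.5 and 21.6 FPKM in Ly6G tumor, against 32.9, 29.9 and 28.0 in Ly6G spleen (-0.38 ± 0.10, adjusted p = 0.0047), and had 0.07 ± 0.10 in Ly6C. The direction of Sdhb also turned with scaling, to 0.027 in Ly6G on equal sums without mitochondrial genes (limma adjusted p = 0.81), and to -0.30 in Ly6C on equal sums without S100a8 and S100a9 (adjusted p = 0.027). The membrane anchor Sdhd had -0.11 ± 0.13 in Ly6C and fell by 0.48 in Ly6G. The other anchor, Sdhc, had a log2 change of 1.11 ± 0.46 in Ly6C and 1.01 ± 0.46 in Ly6G. Its lowest values were 2.50 FPKM in Ly6C spleen replicate 1 and 1.75 in Ly6G spleen replicate 3, where the other spleen libraries had 6.51 to 11.2 and the tumor libraries 10.4 to 15.3.

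Complex III, which passes electrons to cytochrome c, had 5 of 9 nuclear-encoded subunits higher and 0 lower in Ly6C tumor by limma (5 at an unadjusted p under 0.05), and 3 higher and 3 lower in Ly6G tumor. Uqcr10, a small accessory subunit, was at 147, 139 and 142 FPKM in Ly6C tumor, against 77.1, 78.6 and 55.4 in Ly6C spleen. Ly6G tumor had 90.5, 96.8 and 92.8 FPKM, against 72.3, 63.7 and 79.6 in Ly6G spleen. Uqcr10 was higher in each tumor library than in any spleen library (1.03 ± 0.14 in Ly6C, 0.38 ± 0.14 in Ly6G), though the Ly6G value was -0.16 under median-of-ratios factors. Uqcr11, another small subunit, rose by 0.64 ± 0.18 in Ly6C and had 0.21 ± 0.18 in Ly6G, where it did not pass. Cyc1, the cytochrome c1 that hands on the electron, was set apart by Ly6G spleen, with 31.4, 32.3 and 37.8 FPKM in Ly6G tumor, against 18.5, 15.6 and 20.5 in Ly6G spleen. Ly6C tumor had 45.1, 40.1 and 43.5 FPKM, against 38.5, 37.9 and 26.8 in Ly6C spleen. The log2 change of Cyc1 was 0.87 ± 0.15 in Ly6G (limma adjusted p = 0.00029) and 0.33 ± 0.15 in Ly6C (adjusted p = 0.071). Uqcrfs1, the Rieske iron-sulfur protein, passed in neither label (0.19 ± 0.13 in Ly6C and 0.01 ± 0.13 in Ly6G), but in Ly6G it passed as lower with median-of-ratios factors (-0.52, limma adjusted p = 0.00069). The core protein Uqcrc1 had 0.28 ± 0.13 in Ly6C (adjusted p = 0.065) and 0.37 ± 0.13 in Ly6G (adjusted p = 0.023), and the difference between the labels, -0.08 ± 0.18, did not pass. The Ly6G value of Uqcrc1 was -0.16 with median-of-ratios factors, and it did not pass without both tumor libraries of replicate 3 (0.33, adjusted p = 0.073).

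Complex IV, cytochrome c oxidase, had 7 of 15 tested nuclear-encoded subunits higher and 2 lower in Ly6C tumor (median 0.42), and 4 higher and 5 lower in Ly6G tumor (median -0.08). The shares higher, 46.7% and 26.7%, stand beside 46.2% and 51.5% of all genes, and the 2 lower ones in Ly6C were Cox6a2 and Cox6b2, which passed the filter through spleen alone. Both are also among the 5 lower ones in Ly6G. The higher ones in each label include Cox4i2, which passed the filter through tumor alone. These calls follow from the filter. The common isoforms of complex IV were among the most abundant nuclear-encoded members, and several of them did not pass. Cox6a1 had 507, 420 and 524 FPKM in Ly6C tumor, against 504, 477 and 362 in Ly6C spleen. Ly6G tumor had 326, 331 and 371 FPKM, against 372, 316 and 399 in Ly6G spleen, and the groups overlapped (0.12 ± 0.16 in Ly6C and -0.08 ± 0.16 in Ly6G; -0.58 in Ly6C after quantile normalization). Cox4i1, the common form of subunit 4, had a log2 change of 0.38 ± 0.22 in Ly6C and 0.03 ± 0.22 in Ly6G. Cox8a was at 363, 344 and 355 FPKM in Ly6C tumor, against 257, 267 and 198 in Ly6C spleen (0.56 ± 0.16), but the change in Ly6C was -0.046 after quantile normalization, and Ly6G had -0.23 ± 0.16. Cox7a2l, known in mice as the factor that joins complexes III and IV, was at 192, 206 and 204 FPKM in Ly6C tumor, against 68.4, 81.6 and 60.5 in Ly6C spleen. Ly6G tumor had 151, 151 and 123 FPKM, against 89.1, 94.0 and 97.2 in Ly6G spleen. Cox7a2l rose by 1.51 ± 0.13 in Ly6C and 0.59 ± 0.13 in Ly6G, with no overlap between tissues in either label. Cox7b, a small membrane subunit, rose by 0.91 ± 0.14 in Ly6C and 0.78 ± 0.14 in Ly6G. In Ly6G tumor the contact subunit Cox6b1 fell by 1.19 on the log2 scale, with 61.5, 63.4 and 64.6 FPKM, against 149, 128 and 160 in Ly6G spleen, while Ly6C had -0.02 ± 0.15.

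The tissue-restricted isoforms of complex IV were scarce, and some were listed higher in tumor and others in spleen. Cox6b2, known from testis, lay at 0.154, 0.0787 and 0.226 FPKM in Ly6C tumor, against 7.28, 6.82 and 4.49 in Ly6C spleen. Ly6G tumor had 0.0953, 0.162 and 0.365 FPKM, against 6.92, 3.76 and 4.94 in Ly6G spleen. The log2 values of Cox6b2, -2.62 in Ly6C and -2.34 in Ly6G, are given as a description. Cox6a2, the heart and skeletal muscle isoform, was at 0.330, 0.196 and 0 FPKM in Ly6C tumor, against 1.39, 1.20 and 0.520 in Ly6C spleen. Ly6G tumor had 0.144, 0.114 and 0.230 FPKM, against 3.84, 1.75 and 4.02 in Ly6G spleen. Both passed the expression filter only through their spleen libraries, so no test of them between tissues is given. Cox7a1, the other muscle isoform, went the opposite way, with 4.98, 3.22 and 3.49 FPKM in Ly6C tumor, against 1.06, 0.729 and 1.69 in Ly6C spleen. Ly6G tumor had 2.32, 2.87 and 3.96 FPKM, against 0.691, 1.07 and 1.08 in Ly6G spleen (1.19 ± 0.20 in Ly6C and 1.04 ± 0.20 in Ly6G). A list of 6 striated muscle genes summed to 1.29 to 1.49 FPKM in Ly6C tumor, 1.67 to 2.94 in Ly6C spleen, 1.64 to 4.29 in Ly6G tumor and 1.92 to 3.36 in Ly6G spleen. Cox4i2, known from lung and as a target of low oxygen, reached 1.28, 0.570 and 1.40 FPKM in Ly6C tumor and was listed at 0 in all 3 Ly6C spleen libraries, and it had 0.534, 0.567 and 2.47 in Ly6G tumor, against 0.539, 0 and 0.115 in Ly6G spleen. Cox4i2 passed the filter only through tumor libraries.

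Isoforms were also compared as ratios within a library, with 0.1 added to each value, for 8 of 11 pairs listed. Over both labels the log2 ratio in tumor minus spleen was 1.80 for Cox7a1 over Cox7a2 and 1.21 for Cox7a2l over Cox7a2 (exact permutation test within labels, two-sided, adjusted p = 0.00571 each over 8 pairs, the smallest the design allows before adjustment being 0.005). With 1 added in place of 0.1, these differences were 1.27 and 1.20. In another 4 pairs the first isoform had reached the filter through one tissue alone and lay at or near 0 in the other, so direction and size follow from the filter and the value added, and no test is given. These differences were -3.79 for Cox6b2 over Cox6b1, -2.91 for Cox6a2 over Cox6a1 and 2.59 for Cox4i2 over Cox4i1 with 0.1 added, and -1.87, -1.31 and 0.69 with 1 added. Ndufa4l2, a paralogue of Ndufa4 known as a target of the hypoxia factor HIF-1, had 0 FPKM listed throughout spleen, and 2.58, 1.05 and 2.26 FPKM in Ly6C tumor and 1.96, 0.891 and 5.49 in Ly6G tumor, so that it passed the filter only through tumor. Ndufa4, since assigned to complex IV, also rose (1.37 ± 0.18 in Ly6C and 0.81 ± 0.18 in Ly6G), and Ndufa4l2 over Ndufa4 stood 3.26 higher with 0.1 added to each value and 0.54 with 1 added. Of the 3 genes for the identical c-ring protein of the ATP synthase, Atp5g1 and Atp5g2 gained on Atp5g3, by 0.96 and 0.84 with 0.1 added (exact test, adjusted p = 0.00571 each) and by 0.63 and 0.72 with 1 added. Atp5g1 was listed at a mean of 3.63 FPKM and its copy Gm10039, 99.8% identical over 411 bases, at 57.5.

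**Figure D3:**
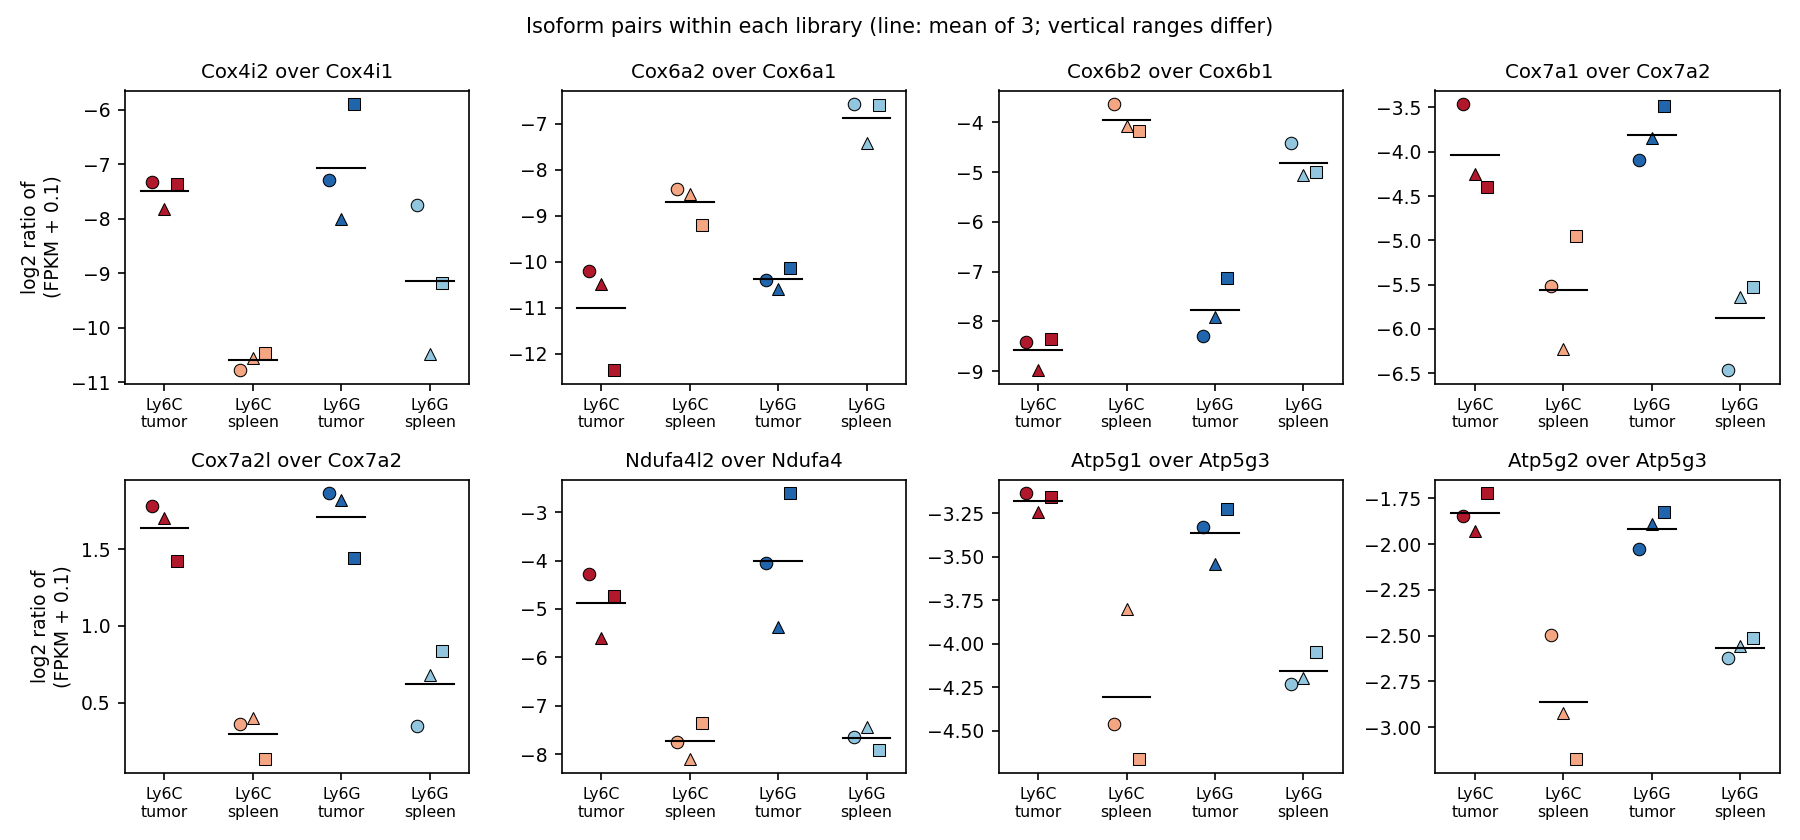
Log2 ratio of 2 isoforms within each library, with 0.1 added to each FPKM value, in the 4 groups for 8 pairs; points are libraries, lines are means of 3, and the vertical ranges differ between panels. Cox6b2 and Cox6a2 stand lower against their common isoform in tumor than in spleen (-3.79 and -2.91 over both labels), and the other 6 pairs stand higher in tumor (0.84 to 3.26). In the pairs of Cox6b2, Cox6a2, Cox4i2 and Ndufa4l2 the direction follows from the expression filter.

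Complex V, the ATP synthase, had 10 of 17 subunits higher and 1 lower in Ly6C tumor (median 0.51), and 6 higher and 6 lower in Ly6G tumor (median 0.28). Its catalytic head holds the alpha and beta subunits. Atp5b, the catalytic beta subunit, on chr10:128083273-128090391 (GRCm38, plus strand), had 295, 276 and 292 FPKM in Ly6C tumor, against 114, 133 and 102 in Ly6C spleen. Ly6G tumor had 211, 191 and 208 FPKM, against 83.6, 79.9 and 74.5 in Ly6G spleen. All tumor libraries were above all spleen libraries, and the log2 change was 1.30 ± 0.12 in Ly6C (limma adjusted p = 1.2e-06) and 1.35 ± 0.12 in Ly6G (adjusted p = 1e-06). The difference of -0.04 ± 0.17 between the labels did not pass. Its partner in the head, the alpha subunit Atp5a1, was at 188, 184 and 179 FPKM in Ly6C tumor, against 111, 141 and 96.0 in Ly6C spleen. Ly6G tumor had 147, 135 and 126 FPKM, against 78.0, 74.2 and 85.5 in Ly6G spleen (0.68 ± 0.14 in Ly6C and 0.77 ± 0.14 in Ly6G). The gamma subunit Atp5c1, the rotor shaft, rose by 1.01 ± 0.19 in Ly6C and had 0.40 ± 0.19 in Ly6G, where it did not pass.

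Several subunits of the ATP synthase stalk and base fell in Ly6G tumor. Atp5f1, the b subunit of the peripheral stalk, had 23.0, 26.4 and 20.6 FPKM in Ly6G tumor, against 53.6, 43.2 and 48.3 in Ly6G spleen (-1.02 ± 0.12, limma adjusted p = 1.3e-05), and -0.02 ± 0.12 in Ly6C. Atp5k, the e subunit that helps dimers form, was at 23.0, 22.8 and 30.7 FPKM in Ly6G tumor, against 63.2, 45.1 and 53.4 in Ly6G spleen (-1.05 ± 0.19), and at -0.06 ± 0.19 in Ly6C. Atp5j, coupling factor F6 of the stalk, fell in both labels, with 18.3, 20.1 and 20.9 FPKM in Ly6C tumor, against 28.2, 27.6 and 23.8 in Ly6C spleen. Ly6G tumor had 13.1, 15.3 and 14.9 FPKM, against 29.6, 27.03 and 23.7 in Ly6G spleen (-0.41 ± 0.12 in Ly6C and -0.85 ± 0.12 in Ly6G). Atp5s, annotated as coupling factor B, passed the filter only through its tumor libraries, where it had 2.96 to 4.75 FPKM, against 0.352 to 0.916 in spleen. It is counted among the higher subunits of complex V in each label.

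The mitochondrially encoded subunits had the highest median change of the 6 classes in both labels. Of 13, 10 passed as higher in Ly6C tumor and 6 in Ly6G tumor, and 0 passed as lower in either by limma (10 and 9 had an unadjusted p under 0.05 in any direction). The shares higher were 76.9% in Ly6C, against 46.2% of all genes, and 46.2% in Ly6G, under the 51.5% of all genes. Cytochrome b, mt-Cytb (chrM:14145-15288, GRCm38), the only mitochondrially made subunit of complex III, had 2318, 1262 and 4310 FPKM in Ly6C tumor, against 444, 752 and 487 in Ly6C spleen. Ly6G tumor had 2414, 2789 and 6573 FPKM, against 714, 787 and 922 in Ly6G spleen. No tumor library overlapped a spleen library, replicate 3 was highest in both tumor groups, and the log2 change was 2.09 ± 0.45 in Ly6C (limma adjusted p = 0.0011) and 2.14 ± 0.45 in Ly6G (adjusted p = 0.00099). The catalytic oxidase subunit mt-Co1 was the most abundant member of all, at 4945, 3564 and 8812 FPKM in Ly6C tumor, against 2061, 2698 and 2308 in Ly6C spleen. Ly6G tumor had 5800, 5349 and 13031 FPKM, against 3289, 3336 and 3174 in Ly6G spleen (1.20 ± 0.37 in Ly6C and 1.18 ± 0.37 in Ly6G). The ATP synthase subunit mt-Atp8 rose by 1.63 ± 0.36 in Ly6C and 2.03 ± 0.36 in Ly6G, and the complex I subunits mt-Nd4 and mt-Nd4l by 1.59 ± 0.44 and 1.52 ± 0.46 in Ly6C and by 1.32 ± 0.44 and 1.99 ± 0.46 in Ly6G. The reading frames of mt-Nd4l and mt-Nd4, and of mt-Atp8 and mt-Atp6, overlap, so reads at these borders cannot be told apart. The oxidase subunits mt-Co2 and mt-Co3 and the complex I subunits mt-Nd1 and mt-Nd2 passed in Ly6C (1.10 to 1.65) but not in Ly6G (0.61 to 1.12). In neither label did mt-Nd3 (0.87 ± 0.53 in Ly6C and -0.13 ± 0.53 in Ly6G) or mt-Nd5 (0.33 ± 0.41 in Ly6C and 0.65 ± 0.41 in Ly6G) pass.

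On the deposited values, only mt-Nd6 (chrM:13552-14070, GRCm38) had a negative log2 change in both labels. It is the only one of the 13 encoded on the other strand of the mitochondrial genome. It had 117, 89.5 and 235 FPKM in Ly6C tumor, against 149, 249 and 151 in Ly6C spleen, and 104, 122 and 304 in Ly6G tumor, against 261, 278 and 307 in Ly6G spleen. The groups overlapped and neither change passed (-0.40 ± 0.41 in Ly6C, limma adjusted p = 0.4; -0.84 ± 0.41 in Ly6G, adjusted p = 0.084). Without the tumor libraries of replicate 3, however, it passed as lower in both labels (-0.795 in Ly6C, adjusted p = 0.013; -1.31 in Ly6G, adjusted p = 0.00076). A ratio chosen after its values were seen, and so given without a test, was that of mt-Cytb over mt-Nd6, which was 14.1 to 19.9 in Ly6C tumor, against 2.97 to 3.22 in Ly6C spleen, and 21.7 to 23.2 in Ly6G tumor, against 2.73 to 2.999 in Ly6G spleen. The strand setting of the counting is not given in the sources used here, so reads from either strand at mt-Nd6 cannot be told apart.

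**Figure D4:**
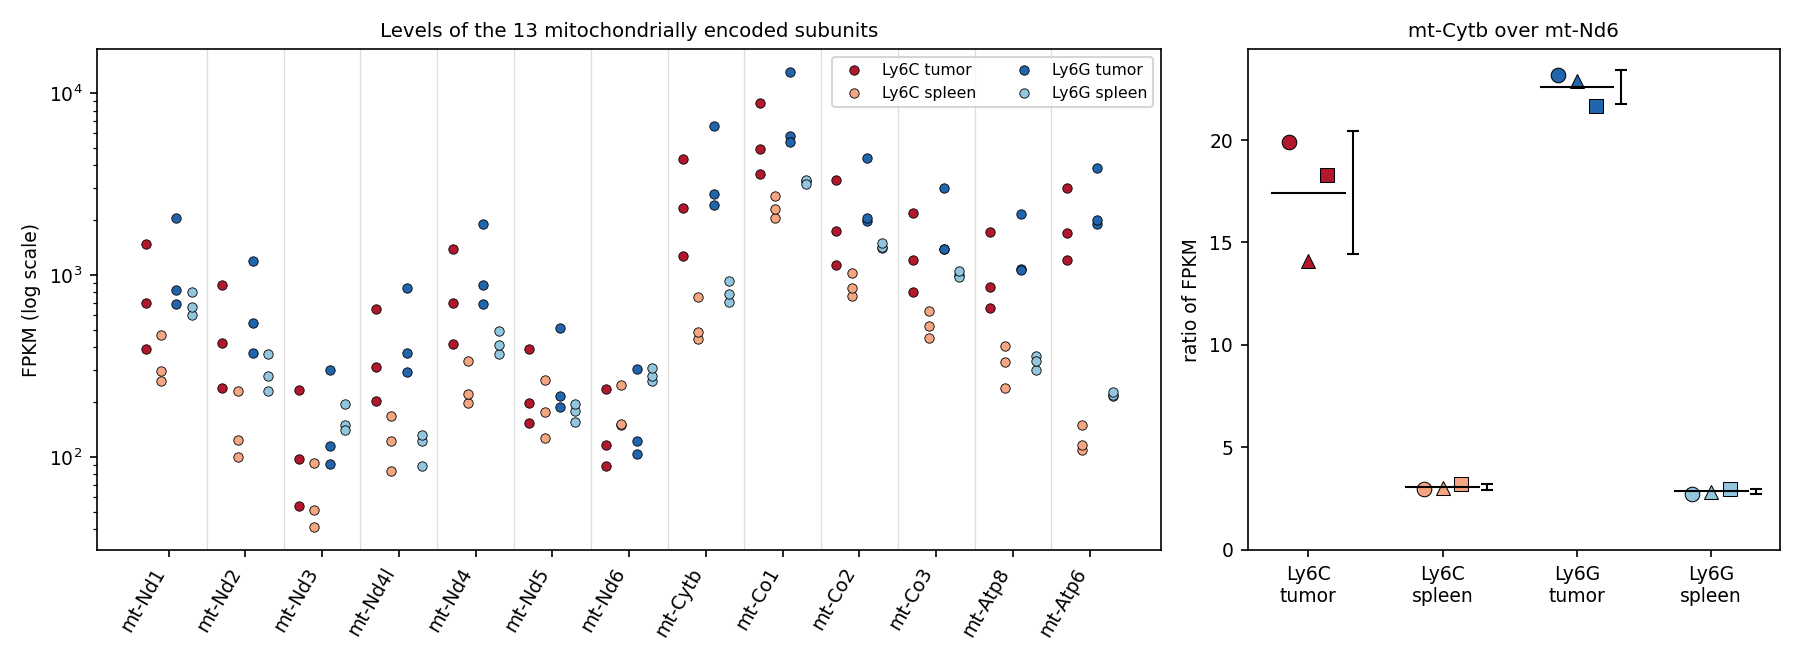
FPKM (log axis) of the 13 mitochondrially encoded subunits in each library of the 4 groups (left), and the ratio of mt-Cytb to mt-Nd6 with its mean and SD of 3 libraries (right). Most subunits lie higher in tumor, mt-Nd6 overlaps between the tissues, and the ratio is 14.1 to 23.2 in the 6 tumor libraries, above 2.73 to 3.22 in the 6 spleen libraries.

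The highest log2 change of all members on the log2(FPKM + 1) scale, that of mt-Atp6, was read from a gene with an identical copy in the nuclear genome. The proton channel subunit mt-Atp6 (chrM:7927-8607, GRCm38) had 1695, 1208 and 3008 FPKM in Ly6C tumor, against 109, 150 and 116 in Ly6C spleen. Ly6G tumor had 1900, 1990 and 3887 FPKM, against 216, 218 and 227 in Ly6G spleen (3.88 ± 0.33 in Ly6C and 3.47 ± 0.33 in Ly6G). Gm10925 on chromosome 1 matches it at 100% over 678 bases, in a block of mitochondrial sequence that also holds copies of mt-Co1, mt-Co2, mt-Co3, mt-Nd3, mt-Nd4 and mt-Nd4l. The first bases of both genes in GENCODE M21 are the same letters throughout, with no base in capitals because none differs.
mt-Atp6: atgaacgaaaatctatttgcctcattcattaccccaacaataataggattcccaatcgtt
Gm10925: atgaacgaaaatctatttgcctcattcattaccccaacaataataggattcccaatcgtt
These stretches lie at chrM:7927-7986 (plus strand) and chr1:24614592-24614651 (minus strand). Beside them, mt-Nd3 and its copy Gm28438 show the single base by which a near-identical pair can differ, T3C in capitals, counted from 1 at the 5′ end of the transcript.
mt-Nd3: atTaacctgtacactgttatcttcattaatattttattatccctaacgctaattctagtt
Gm28438: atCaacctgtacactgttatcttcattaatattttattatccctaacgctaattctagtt
They lie at chrM:9459-9518 (plus strand) and chr1:24613060-24613119 (minus strand). For the 5 members with a copy in this block that is identical over its aligned length, the ratio of member to copy was taken in each library. It was 0.966 to 0.976 in tumor and 0.954 to 0.979 in spleen for mt-Co2 over Gm28661, and 0.956 to 0.967 in tumor and 0.959 to 0.969 in spleen for mt-Co3 over Gm28437. For mt-Atp6 over Gm10925 it was 0.889 to 0.900 in the 6 tumor libraries and 0.187 to 0.208 in the 6 spleen libraries, with no overlap between the tissues. For mt-Nd4 over Gm28439, identical over 876 bases, it was 2.14 to 2.51 in Ly6C tumor, against 2.14 to 2.46 in Ly6C spleen, and 2.36 to 2.45 in Ly6G tumor, against 3.21 to 3.64 in Ly6G spleen. For mt-Nd4l over Gm10222, identical over 294 bases, it was 1320 to 5217 in tumor and 526 to 1009 in spleen, with Gm10222 itself at a mean of 0.153 FPKM. So the ratio separated the tissues for mt-Atp6 and mt-Nd4l, and for mt-Nd4 in Ly6G, but not for mt-Co2 and mt-Co3. Gm10222 lay between 0.131 and 0.175 FPKM in every library, so the ratio of mt-Nd4l only repeats the level of mt-Nd4l. Summed with the copy, mt-Atp6 had a log2 change of 2.36 in Ly6C and 1.91 in Ly6G (limma adjusted p = 5.7e-05 and 0.00032), closer to mt-Atp8 and mt-Cytb. What divides the reads of these pairs was not tested.

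**Figure D5:**
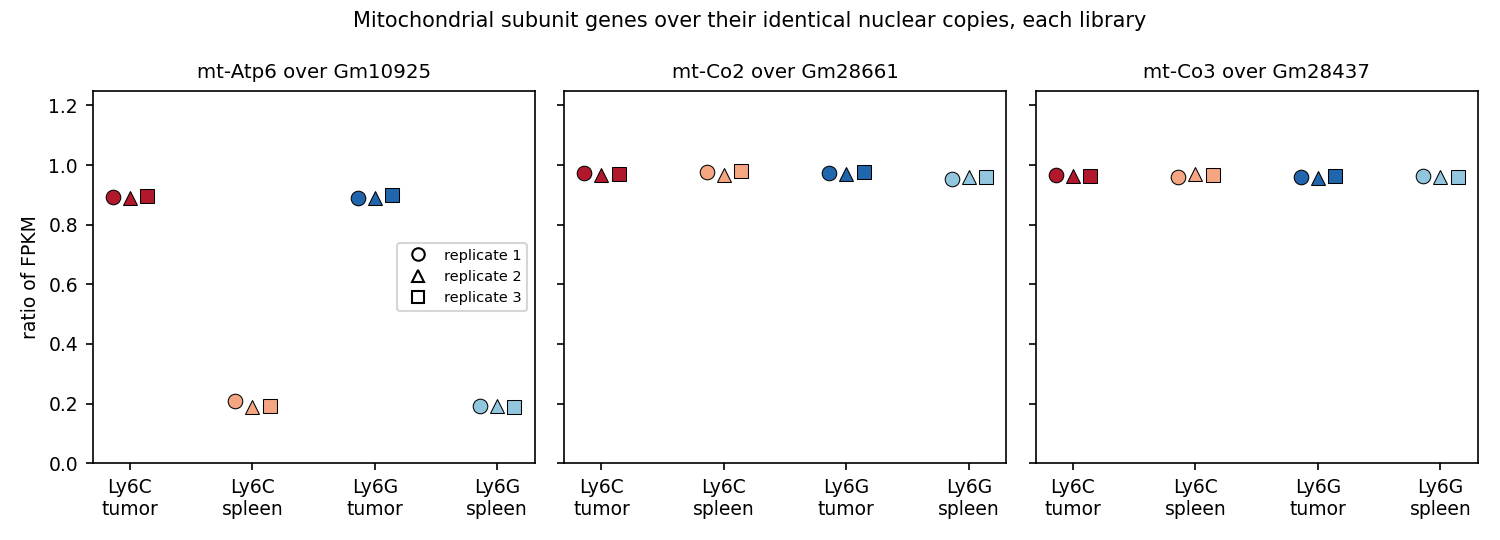
Ratio of the FPKM of mt-Co2, mt-Co3 and mt-Atp6, 3 of the 5 mitochondrially encoded subunits with an identical copy there, to that of the copy on chromosome 1, one point per library in the 4 groups. The ratio stays between 0.954 and 0.979 for mt-Co2 and mt-Co3 in all 12 libraries, and is 0.889 to 0.900 in tumor and 0.187 to 0.208 in spleen for mt-Atp6.

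The next question was how the Ly6C and Ly6G libraries differed within a tissue. In spleen, 7 subunits were higher in Ly6C than in Ly6G and 10 lower, beside 22.1% and 8.59% of all genes tested (30.6% in either direction), with a median of -0.04 over nuclear-encoded subunits and 0.11 over all genes. The direction turned with scaling, to 21 higher and 2 lower on equal sums and 1 and 33 with median-of-ratios factors. Of the subunits that passed, 91.3% and 2.94% were then higher, beside 90.5% and 42.8% of all genes that passed. Cyc1 was the largest rise, with 38.5, 37.9 and 26.8 FPKM in Ly6C spleen, against 18.5, 15.6 and 20.5 in Ly6G spleen (0.87 ± 0.15, limma adjusted p = 0.0017), and Atp5b (0.54 ± 0.12) and Atp5a1 (0.53 ± 0.14) followed. Of the lower ones, Cox6a2 had the lowest value, -1.02, given as a description. It reached 1 FPKM in 5 spleen libraries and 0 tumor libraries, with a mean of 1.03 in Ly6C spleen and 3.20 in Ly6G spleen. So Cox6a2 passed the filter through the group where it was high, and no test of it is given. Uqcrh, the hinge protein of complex III (-0.96 ± 0.16), and Cox6b1 (-0.60 ± 0.15) followed. Cyc1 and Uqcrh passed under all 6 scalings. Of the 13 mitochondrially encoded subunits 0 passed by limma, with 3 at an unadjusted p under 0.05 and a median of -0.72. An unadjusted limma p under 0.05 was found for 5585 of all 13610 genes. The B cell genes summed to 249.9 to 383 FPKM in Ly6C spleen, against 738 to 1278 in Ly6G spleen, and the erythroid genes to 275 to 809, against 1137 to 2989.6. Their part in this comparison was not tested.

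In tumor, 37 subunits were higher in Ly6C than in Ly6G and 0 lower, all 37 nuclear-encoded, beside a background of 5.80% and 8.70%. The 83 nuclear-encoded subunits had a median of 0.50, against 0.04 over all genes. An unadjusted limma p under 0.05 was found for 68 of them, beside 4340 of all 13610 genes. The 13 mitochondrially encoded ones had a median of -0.46, with 0 passing by limma and 0 at an unadjusted p under 0.05. The highest were Uqcrb, a ubiquinone-binding subunit of complex III (0.77 ± 0.12; 0.46 when summed with its copy Gm2962), Ndufc2 (0.69 ± 0.19) and Atp5c1 (0.66 ± 0.19). Uqcrb had 44.3, 45.1 and 49.3 FPKM in Ly6C tumor, against 28.4, 27.2 and 24.4 in Ly6G tumor, with no overlap between the groups. This count was the least stable: it was 3 without Ly6C tumor replicate 3, 4 without Ly6G tumor replicate 3, 0 without both, 10 to 18 without one of the other tumor libraries, and 4 to 12 on the 3 equal-sum scalings. Of all genes, 108 were higher on equal sums, 88 without mitochondrial genes and 131 without S100a8 and S100a9. Relative to all genes the nuclear-encoded median stayed 0.38 to 0.47 higher under the 6 scalings. Ly6C tumor held less of the leukocyte genes than Ly6G tumor (300.2 to 626, against 806 to 1384 FPKM) and the epithelial list summed to 753 to 1020, against 446 to 754, nearly all of it Krt8 and Krt18. The part of these in the difference was not tested.

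The last comparison set the tumor minus spleen change of Ly6C against that of Ly6G. The change of Ly6C exceeded that of Ly6G for 29 subunits and fell short for 0 by limma, beside 6.02% and 15.8% of all genes, and all 29 were nuclear-encoded. An unadjusted limma p under 0.05 was found for 48 subunits, beside 4868 of all 13610 genes. The nuclear-encoded median was 0.54, against -0.10 over all genes, and stayed 0.52 to 0.71 above it under the 6 scalings, though the count was 6 on equal sums and 57 with median-of-ratios factors, and 11 without both tumor libraries of replicate 3. Over all genes the change of Ly6C exceeded that of Ly6G for 275 on equal sums and 1699 with median-of-ratios factors. Uqcrh had the largest difference: 40.0, 43.9 and 38.7 FPKM in Ly6C tumor, against 28.4, 29.1 and 21.3 in Ly6C spleen, but 28.6, 33.6 and 28.1 in Ly6G tumor, against 47.2, 45.4 and 63.6 in Ly6G spleen. It rose in one label and fell in the other (0.63 ± 0.16 in Ly6C and -0.76 ± 0.16 in Ly6G), a difference of 1.39 ± 0.22 (limma adjusted p = 0.0021). Ndufa1, a membrane-anchored accessory subunit of complex I, moved the same way, with 127, 113 and 126 FPKM in Ly6C tumor, against 98.3, 101 and 80.1 in Ly6C spleen. Ly6G tumor had 82.1, 87.7 and 67.3 FPKM, against 153, 115 and 139 in Ly6G spleen (difference 1.16 ± 0.21, adjusted p = 0.0036). For Cox6b1 the difference was 1.17 ± 0.21 (adjusted p = 0.0034). These 3, with Ndufa7, Uqcrb and Atp5f1, passed under all 6 scalings. For Uqcrb this holds for the member alone, without its copy Gm2962, which is 98.2% identical over 336 bases. Gm2962 was listed at 12.4 to 19.3 FPKM in Ly6C tumor, against 25.7 to 31.7 in Ly6C spleen. In Ly6G it had 15.6 to 20.8 FPKM in tumor, against 7.85 to 22.2 in spleen. How far the Uqcrb difference depends on this copy was not tested under these scalings.

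Genes that build or feed the respiratory chain, taken as whole lists by function, were higher in tumor more often than lower in every list tested here, as were all genes (46.2% higher and 30.5% lower in Ly6C, 51.5% and 24.7% in Ly6G). Shares near or under that background were those of assembly factors in Ly6G (55.3% higher), genes around cytochrome c in Ly6G (57.1%) and regulators (37.5% in Ly6C and 50% in Ly6G). The other shares are 61.7% to 75.6% higher in Ly6C and 63.6% to 73.3% in Ly6G. Of 47 assembly factors tested, 29 were higher and 3 lower in Ly6C (median 0.51), and 26 and 8 in Ly6G (median 0.50). Uqcc2, needed for complex III assembly, averaged 125 ± 19.1 FPKM in Ly6C tumor and 15.0 ± 7.77 in Ly6C spleen, and 85.2 ± 0.985 in Ly6G tumor and 12.6 ± 3.95 in Ly6G spleen (SD, n = 3 each; log2 change 3.09 ± 0.30 in Ly6C and 2.71 ± 0.30 in Ly6G). Pet100, an assembly factor of complex IV, fell in both labels, by 0.72 in Ly6C and by 1.91 in Ly6G on the log2 scale. Of 78 proteins of the mitochondrial ribosome, which translates the 13 mitochondrial messages, 59 were higher and 1 lower in Ly6C (median 0.80), and 51 and 7 in Ly6G (median 0.60), with Mrps6 highest (4.23 ± 0.17 in Ly6C and 3.34 ± 0.17 in Ly6G) and Mrps18c lowest (-0.99 ± 0.14 in Ly6C and -1.74 ± 0.14 in Ly6G).

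Among 22 genes of mitochondrial transcription, RNA handling and DNA copying, 16 were higher and 1 lower in Ly6C (median 0.71), and 14 and 2 in Ly6G (median 0.49). Lrpprc and Slirp, which form a complex that stabilises mitochondrial messages, were higher in both labels (1.86 ± 0.17 and 2.02 ± 0.15 in Ly6C, 1.60 ± 0.17 and 1.34 ± 0.15 in Ly6G), and Polg, the mitochondrial DNA polymerase, fell by 1.35 in Ly6C and had -0.18 ± 0.11 in Ly6G. Of 15 citric acid cycle genes, 11 were higher and 0 lower in Ly6C (median 0.83; limma), and 11 and 1 in Ly6G (median 0.84), with pyruvate carboxylase, Pcx, at 2.30 ± 0.16 in Ly6C and 2.35 ± 0.16 in Ly6G. Of 7 genes around cytochrome c and nucleotide exchange, 5 rose and 0 fell in Ly6C, and 4 rose and 2 fell in Ly6G. The ADP/ATP carrier Slc25a4 averaged 134 ± 4.72 FPKM in Ly6C tumor and 11.0 ± 5.88 in Ly6C spleen, and 94.1 ± 6.19 in Ly6G tumor and 7.74 ± 1.83 in Ly6G spleen (3.61 ± 0.28 in Ly6C and 3.46 ± 0.28 in Ly6G). Of 8 regulators tested, Myc (4.64 ± 0.28 in Ly6C and 4.29 ± 0.28 in Ly6G) and Hif1a (2.44 ± 0.26 in Ly6C and 1.93 ± 0.26 in Ly6G) had the highest changes, and Esrra, a nuclear receptor that activates respiratory genes, fell by 0.88 in Ly6C and by 0.35 in Ly6G. The medians of all genes, 0.27 in Ly6C and 0.43 in Ly6G, stand beside these values, as do the marker differences above.

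Promoter sequences were read from RefSeq windows on GRCm38.p6, which covered 67 of the 86 distinct nuclear symbols. In the 250 bases upstream of a start, on both strands, GCATGCGC, the core of the NRF1 site, was present for 11.9% of members, against 2.56% of all 27025 genes with a window. CCGGAAG, read by GABPA and other ETS factors, was present for 17.9%, against 7.83%, the YY1 motif AAGATGGCG for 1.49%, against 0.71%, the estrogen-related receptor motif TGACCTT for 7.46%, against 4.7%, and the hypoxia motif ACGTG for 19.4%, against 18.5%. Of members that passed in both labels under all 6 scalings, 5 of the higher ones and 4 of the lower ones had a window. CCGGAAG was present for 0 of the higher and 2 of the lower ones, Atp5j and Ndufb7, and AAGATGGCG for 0 and 1. ACGTG was present for 1 of each set, and GCATGCGC and TGACCTT for 0 of either. The 2 sets were not compared by a test, and they hold Ndufa12 and Cox6b2, which passed the expression filter through one tissue alone. The windows of Atp5b, at chr10:128083057-128083306 (plus strand), and Ndufb7, at chr8:83566508-83566757 (plus strand), are shown because both moved in each label, in opposite directions. CCGGAAG stands in capitals in Ndufb7 and none of the 5 motifs is present in Atp5b, which says only that these letters are absent from that window.
Atp5b: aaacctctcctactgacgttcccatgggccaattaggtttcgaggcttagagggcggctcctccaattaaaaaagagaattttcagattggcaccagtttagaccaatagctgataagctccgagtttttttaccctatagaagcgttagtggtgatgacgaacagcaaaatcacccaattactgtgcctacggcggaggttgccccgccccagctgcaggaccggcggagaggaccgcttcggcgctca
Ndufb7: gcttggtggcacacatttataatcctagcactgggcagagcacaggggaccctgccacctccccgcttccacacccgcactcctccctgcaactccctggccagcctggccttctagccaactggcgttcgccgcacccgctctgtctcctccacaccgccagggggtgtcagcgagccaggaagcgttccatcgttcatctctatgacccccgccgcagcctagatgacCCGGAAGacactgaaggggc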

How the data were processed

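The values used were FPKM per gene in 12 libraries, as deposited by the authors. The tools, per the submitters' processing notes, include featureCounts 1.5.0-p3 and HISAT2 2.0.5, with GRCm38 as the build. Which tool computed FPKM, with what annotation release and strand setting, is not given in the sources used here. Read depth is unknown, whole reads could not be recovered, and no count test was run. FPKM is compositional, so a few abundant genes shift all others; 5 other scalings were tried.

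Symbols came from GENCODE M21 by Ensembl ID; 66 identifiers of the matrix had no entry. Members and lists were chosen with earlier results of these data known. Groups follow the labels. Genes with at least 1 FPKM in 3 or more libraries were fitted together with limma 3.58.1 in R 4.3.3 on log2(FPKM + 1), with 4 group means and a variance trend, and p-values were Benjamini-Hochberg adjusted over 13610 genes at 0.05. Fold changes on this scale understate those of low genes. Shares and ratios were tested by exact permutation of libraries within labels, two-sided, with numpy 2.4.6. Copies were found with blastn 2.17.0 between GENCODE M21 transcripts. The fit was tested on simulated data.

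Members named were all mitochondrially encoded ones, the 4 of complex II, isoform pairs, catalytic subunits, the 3 most abundant nuclear ones, the 2 largest passing rises and falls per complex between tissues, and the 3 highest and lowest passing in each other comparison. Ndufa7, Ndufb5, Ndufb4, Atp5l and Atp5o were named outside this rule after their values were seen. Alternatives were other pseudocounts, filters, scalings and fits, and leaving out libraries. Subunits without values of their own in the text are counted in the totals.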

Additional observations from a re-analysis of the deposited data

Results flagged for a closer look

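For 3 subunits the change between tissues differed between the labels in the test of that difference, as Ly6C minus Ly6G of the tumor minus spleen log2 change (limma, adjusted over all genes): 1.39 for Uqcrh, 1.17 for Cox6b1 and 1.16 for Ndufa1. Signal was also present in a gene outside the members: Gm10925, the copy of mt-Atp6 on chromosome 1, averaged 2201 ± 1031 FPKM in Ly6C tumor and 643 ± 143 in Ly6C spleen, a ratio of 3.42. It averaged 2896 ± 1233 in Ly6G tumor and 1159 ± 38.0 in Ly6G spleen, a ratio of 2.50 (SD, n = 3 each).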

How the results depend on the processing

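The ratio of mitochondrially to nuclear-encoded subunits kept its direction and passed under every alternative (log2 0.96 to 1.33 with a library left out). The log2 difference of the nuclear-encoded share was 0.34 with all genes in the total (0.27 to 0.39 with a library left out). It was -0.031 without S100a8 and S100a9. Counts of subunits that passed moved with scaling, as did those of all genes, and between the labels in tumor also with the libraries used. For Ly6C tumor against spleen, median-of-ratios factors gave 37 higher and 12 lower, quantile normalization 9 lower, and equal sums without S100a8 and S100a9 34 higher and 14 lower; leaving out a library gave 49 to 66 higher and 5 to 6 lower. For Ly6G tumor against spleen, equal sums gave 51 higher and 14 lower, equal sums without mitochondrial genes 54 and 12, and median-of-ratios factors 13 and 49; leaving out a library gave 28 to 35 and 23 to 30. For Ly6C against Ly6G in spleen, higher counts were 4 with no filter, 21 on equal sums with or without mitochondrial genes, 1 with median-of-ratios factors, 4 with quantile normalization, 15 without S100a8 and S100a9, 2 when the groups were fitted alone, and 2 to 13 with a library left out (13 without Ly6C spleen replicate 3, 3 without Ly6C spleen replicate 2, 2 without Ly6G spleen replicate 2). Lower counts were 2 on both equal sums, 33 with median-of-ratios factors, 18 with quantile normalization, 6 without S100a8 and S100a9, and 4 to 12 with a library left out (4 without Ly6G spleen replicate 1, 6 without Ly6C spleen replicate 3). For Ly6C against Ly6G in tumor, higher counts were 6 on equal sums, 4 without mitochondrial genes, 12 without S100a8 and S100a9, 60 when fitted alone, 0 without both tumor libraries of replicate 3, and 3 to 54 with a library left out; lower counts were 0 throughout by limma. For the difference between labels, higher counts were 19 with no filter, 6 on equal sums with or without mitochondrial genes, 57 with median-of-ratios factors, 15 without S100a8 and S100a9, 11 without both tumor libraries of replicate 3, and 15 to 43 with a library left out (15 without Ly6C tumor replicate 3, 19 without Ly6G tumor replicate 3, 18 without Ly6G spleen replicate 1). Lower counts were 1, 2 and 1 on the 3 equal-sum scalings and 0 to 1 with a library left out. Without S100a8 and S100a9 in the total, log2 differences of the shares were -0.11 for complex I, -0.27 for complex II, 0.053 for complex III, -0.11 for complex IV and 0.22 for complex V. With all genes in the total and a library left out, they were 0.20 to 0.31 for complex I, 0.061 to 0.15 for complex II and 0.35 to 0.48 for complex III. The ranges were 0.19 to 0.30 for complex IV, 0.53 to 0.65 for complex V and 1.32 to 1.67 for mitochondrially encoded subunits. Complex I did not pass without any one of the 3 Ly6C tumor libraries, Ly6G tumor replicate 2 or Ly6G spleen replicate 2. Ndufa4l2 over Ndufa4 was 0.54 with 1 added. Single genes reversed in Ly6C for Sdha (-0.052 with median-of-ratios factors, -0.11 without S100a8 and S100a9), Sdhb (-0.30 without S100a8 and S100a9), Cox6a1 (-0.58) and Cox8a (-0.046, both by quantile normalization). In Ly6G they reversed with median-of-ratios factors for Ndufs1 (-0.40; -0.43 by quantile normalization), Sdha (-0.34), Uqcr10 (-0.16), Uqcrc1 (-0.16) and Uqcrfs1 (-0.52), and on equal sums without mitochondrial genes for Sdhb (0.027). The cause of these moves was not tested. Of the named genes that passed between tissues, 24 of 38 in Ly6C and 17 of 35 in Ly6G passed under every alternative. The named genes include the largest passing rises and falls of these same tests, and members that reached the filter through one tissue alone. How many of all genes passed under every alternative was not counted, so these counts have no background. Replicate numbers did not pair the libraries: r was -0.01 to 0.15 over the 6 pairs of tumor and spleen, 3 of them best with their own number, and -0.36 to 0.28 over all 18 pairs of groups, 7 of them best with their own number, with 0.28 between the tumor libraries of replicate 3. With the replicate number as a block, complex I had 0.26 and no longer passed (exact test of sign flips, adjusted p = 0.113). The counts were 58 and 5 in Ly6C, 36 and 27 in Ly6G, 6 and 9 in spleen, 29 and 0 in tumor, and 24 and 0 for the difference. Summing members with copies and leaving out mt-Atp6 or all members with a copy on chromosome 1 were chosen after seeing the data.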

Other observations

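Another ratio within the mitochondrial genome, chosen after its values were seen and given without a test, also separated the tissues. mt-Co1 over mt-Nd6 was 39.9 ± 2.50 in Ly6C tumor and 13.3 ± 2.26 in Ly6C spleen, and 47.5 ± 7.12 in Ly6G tumor and 11.6 ± 1.18 in Ly6G spleen (SD, n = 3 each). The mitochondrial ribosomal RNAs summed to 742 ± 265 FPKM in Ly6C tumor and 593 ± 148 in Ly6C spleen, and to 841 ± 278 in Ly6G tumor and 1599 ± 130 in Ly6G spleen. These sums overlapped between the tissues in Ly6C and were lower in tumor in Ly6G. Across the 83 nuclear-encoded subunits tested, the change between tissues had a Spearman rho with exonic length of 0.04 in Ly6C and 0.21 in Ly6G, a description over genes of the same libraries, beside -0.05 and 0.05 over all genes.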
